A study of Danio rerio with 15 samples.

Results

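The genes described here are 10 skeletal muscle genes measured in zebrafish embryo heads: mylpfa (ENSDARG00000053254), tnnt3b (ENSDARG00000068457), ckma (ENSDARG00000035327), ckmb (ENSDARG00000040565), acta1b (ENSDARG00000055618), actc1b (ENSDARG00000099197), myod1 (ENSDARG00000030110), myog (ENSDARG00000009438), smyhc1 (ENSDARG00000099959) and mylz3 (ENSDARG00000017441). They were chosen by name and not by a rule on their values, though earlier results of these data were known. All 10 were among the 23009 genes of the deposited tables. RNA was sequenced from 15 pools of heads, each from 20 embryos at 2 days post-fertilization, with 5 pools in each of 3 groups. The first group was injected with a guide RNA against ncapg2 together with Cas9, the nuclease that the guide directs to the gene (libraries S11 to S15, called guide plus Cas9). The second received the guide RNA without Cas9 (S6 to S10), and the third received phenol red, a tracer dye (S1 to S5). All embryos came from matings of wild-type adults and were raised at 28 °C, and no group was given Cas9 on its own, so an effect of Cas9 and one of the cut in ncapg2 cannot be told apart. The sample titles number the guide gRNA3 and the treatment labels number it gRNA1. The study set out to learn what loss of NCAPG2, a subunit of the chromosome-compacting complex condensin II, changes in the developing embryo.

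Skeletal muscle forms when mesodermal cells switch on the myogenic transcription factors Myod1 and Myog, leave the cell cycle and fuse into fibres. In a fibre, actin thin filaments and myosin thick filaments slide past each other in sarcomeres, troponin makes the sliding depend on calcium, and creatine kinase restores the ATP that myosin spends. Fast and slow fibres build the same machine from different gene copies, and in the head of the larva these fibres move the eyes, the jaw and the gill arches.

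Each library held between 34.97 and 49.30 M reads assigned to genes (M, mega), and the 10 muscle genes together took between 0.424% of them (S2) and 0.580% (S6). For S2 the 95% Wilson interval of that share was 0.422% to 0.426%, which covers counting error only. The target gene ncapg2 had a normalized count of 423, 407, 373, 505 and 432 in guide plus Cas9 libraries, against 988, 979, 901, 809 and 885 in guide RNA libraries and 834, 868, 945, 754 and 879.7 in phenol red libraries. It was lower in every guide plus Cas9 library than in any other, with limma log2 fold changes of -1.09 and -1.001 and adjusted p of 0.00032 and 0.00087 over guide RNA and phenol red. Genes of the head and brain such as pax6a and otx2 were detected in every library, at means of 5239.6 and 3156 normalized counts. Genes of other body parts were detected too: the 12 measured hox and cdx genes of the trunk and tail summed to between 76.1 (S5) and 274.5 (S11), and 23 heart muscle genes to between 21998 (S10) and 29251 (S3).

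None of the 10 muscle genes passed the test between any pair of groups. A normalized count is the number of reads on a gene divided by 1 size factor per library, and each difference below was tested with limma on log2(normalized count + 1), with a threshold of 0.05 on the adjusted p. With guide plus Cas9 over guide RNA, 0 of 10 genes were called, beside 0.00463% of all genes tested, which is ncapg2 alone. With guide plus Cas9 over phenol red it was again 0 of 10, beside 0.00463%, and with guide RNA over phenol red 0 of 10, beside 0%. At an unadjusted p under 0.05 the count was also 0 of 10 in each comparison, beside 0.917%, 2.29% and 1.04% of all genes. The groups overlapped for all 10 genes in all 3 comparisons, while 0.232%, 0.426% and 0.204% of all genes had groups that did not overlap. On the recovered reads, edgeR and DESeq2 also called 0 of 10 in each comparison. With column position as a block, described further on, the counts stayed at 0 of 10, beside 0.0139%, 0.00927% and 0.0185% of all genes, or 3, 2 and 4 genes. With shares this low among all genes, a count of 0 of 10 does not set the muscle genes apart.

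The intervals give the range of differences that the values of each gene leave possible. Each is a 95% interval for 1 gene in 1 comparison and not for all 30 jointly, and differences between column positions are part of its error. A call needed more than an interval clear of 0, since p was adjusted over all genes. Over the 30 estimates, the 95% intervals reached from -0.32 to 0.36 on the log2 scale, or from 0.80- to 1.28-fold. The median log2 fold change of the 10 genes was 0.0029 for guide plus Cas9 over guide RNA, -0.016 for guide plus Cas9 over phenol red and -0.020 for guide RNA over phenol red. Over all genes tested the medians were 0.0018, 0.0049 and 0.0079. In bulk RNA, fewer muscle cells and less RNA per muscle cell cannot be told apart.

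The regulators Myod1 and Myog had groups that overlapped and no call in any comparison. Myod1, a transcription factor that commits cells to the muscle lineage, gave normalized counts of 515, 454, 486, 416 and 405 in the guide plus Cas9 libraries S11 to S15, 519, 471, 425, 487 and 449 in the guide RNA libraries S6 to S10 and 433, 481, 525, 465 and 497 in the phenol red libraries S1 to S5. Values between 405 and 525 covered all 3 groups, and its means were 455 ± 46.4 with guide plus Cas9, 470.5 ± 35.9 with guide RNA and 480.3 ± 34.3 with phenol red (SD, n = 5 each). Myog, which acts after Myod1 when myoblasts differentiate and fuse, gave normalized counts of 485, 483, 503, 397 and 452 in the guide plus Cas9 libraries S11 to S15, 498, 414, 406, 508 and 389 in the guide RNA libraries S6 to S10 and 562, 408, 525, 386 and 450.2 in the phenol red libraries S1 to S5. The phenol red libraries spanned the whole range, with the highest value in S1 and the lowest in S4. Its log2 fold change was 0.071 ± 0.095 (SE) for guide plus Cas9 over guide RNA, 0.0032 ± 0.11 for guide plus Cas9 over phenol red and -0.068 ± 0.12 for guide RNA over phenol red, none past the threshold.

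Of the fast-fibre genes, mylpfa encodes the regulatory light chain of fast myosin. Its normalized counts were 46684, 44841, 40473, 36978 and 38046 in the guide plus Cas9 libraries S11 to S15, 54445, 44359, 37314, 40014 and 39079.5 in the guide RNA libraries S6 to S10 and 54715, 38914, 43934, 43252 and 44512 in the phenol red libraries S1 to S5. S1 and S6 stood above every other library, and S11 was the highest of the guide plus Cas9 group. The means were 41404 ± 4226 with guide plus Cas9, 43042 ± 6882 with guide RNA and 45065 ± 5827 with phenol red (SD, n = 5 each). The log2 fold change of mylpfa was -0.048 ± 0.10 (SE) for guide plus Cas9 over guide RNA, -0.12 ± 0.094 for guide plus Cas9 over phenol red and -0.071 ± 0.11 for guide RNA over phenol red, so each difference was smaller than 2 of its own standard errors. A further fast light chain gene, mylz3, was measured at 17400.3, 16788, 14129, 13665 and 14120.0 in the guide plus Cas9 libraries S11 to S15, 19550.4, 15959, 13451, 14118 and 13899.8 in the guide RNA libraries S6 to S10 and 16375, 13277, 15409, 15686 and 16183 in the phenol red libraries S1 to S5. Its highest library was S6 and its lowest S2, and the groups overlapped. For tnnt3b, the fast troponin T that anchors the troponin complex to the thin filament, the values were 19727, 19292, 17326, 16036 and 15952 in the guide plus Cas9 libraries S11 to S15, 22443, 18428, 17148, 18468 and 17171 in the guide RNA libraries S6 to S10 and 20863, 16654, 18156, 18471 and 19205 in the phenol red libraries S1 to S5. Again S6 and S1 were the highest libraries. The log2 fold change of tnnt3b was -0.083 ± 0.087 (SE) for guide plus Cas9 over guide RNA, -0.082 ± 0.081 for guide plus Cas9 over phenol red and 0.0014 ± 0.086 for guide RNA over phenol red.

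The actins form the thin filament. For acta1b, a skeletal alpha-actin gene, the normalized counts were 12183, 13162, 13436, 11247 and 11002 in the guide plus Cas9 libraries S11 to S15, 11704, 12695, 12473, 13481 and 10627 in the guide RNA libraries S6 to S10 and 10493, 10905, 14545, 14247 and 13421 in the phenol red libraries S1 to S5. The lowest value was in S1 and the highest in S3, both from phenol red. For actc1b, whose product is an alpha-actin that zebrafish skeletal muscle also uses, they were 72016, 77276, 78807, 68354 and 72884 in the guide plus Cas9 libraries S11 to S15, 77932, 71378, 73215, 78258 and 55649 in the guide RNA libraries S6 to S10 and 63484, 52329, 74404, 77476 and 67322 in the phenol red libraries S1 to S5. Low values stood in S2 and S10, from phenol red and guide RNA. The group means of actc1b were 73867 ± 4208 with guide plus Cas9, 71286 ± 9233 with guide RNA and 67003 ± 9903 with phenol red (SD, n = 5 each). Its log2 fold change over phenol red with guide plus Cas9, 0.15 ± 0.096 (SE), was the largest of the 30 in size and had the lowest unadjusted p, 0.136 in limma. The coding sequences of vertebrate alpha-actin genes are near-identical, so how reads were split between acta1b, actc1b and the other copies is uncertain. The sum of acta1b and actc1b averaged 86073 ± 5179.5 with guide plus Cas9, 83482 ± 10091 with guide RNA and 79725 ± 11566 with phenol red (SD, n = 5 each).

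Creatine kinase of the muscle type is encoded by ckma and ckmb. For ckma the normalized counts were 18081, 17881, 17027, 15353 and 15629.9 in the guide plus Cas9 libraries S11 to S15, 19639, 16715, 15337, 16048 and 13855 in the guide RNA libraries S6 to S10 and 17318, 12671, 17433, 16597 and 17256 in the phenol red libraries S1 to S5. S2 stood well below the other phenol red libraries. For ckmb they were 24288, 25705, 22680.3, 20607 and 20352 in the guide plus Cas9 libraries S11 to S15, 25276, 23811, 20629, 21948 and 21446 in the guide RNA libraries S6 to S10 and 21938, 20401, 22796, 23019 and 23445 in the phenol red libraries S1 to S5. The highest library was S12 and the lowest S15, both with guide plus Cas9. Log2 fold changes ran from 0.0062 to 0.054 for ckma and from 0.0046 to 0.022 for ckmb over the 3 comparisons. The paired copies may share reads, and their sum averaged 39521 ± 3531 with guide plus Cas9, 38941 ± 3912 with guide RNA and 38575 ± 3126 with phenol red (SD, n = 5 each).

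The slow-fibre gene of the set is smyhc1, a slow myosin heavy chain that marks the first slow fibres of the zebrafish embryo. Its normalized counts were 7070.5, 8171, 7845, 7956 and 7414 in the guide plus Cas9 libraries S11 to S15, 6162, 7568, 8232, 7586 and 7917 in the guide RNA libraries S6 to S10 and 6519, 7197, 8300.2, 8259 and 8701 in the phenol red libraries S1 to S5. In each group the first of these libraries, S11, S6 or S1, was the lowest, and these 3 were below all other 12. The log2 fold change of smyhc1 was 0.043 ± 0.077 (SE) for guide plus Cas9 over guide RNA, -0.013 ± 0.083 for guide plus Cas9 over phenol red and -0.056 ± 0.098 for guide RNA over phenol red. The neighbouring copy smyhc2 is very similar in sequence, so the split of reads between them is uncertain, and their sum averaged 9992 ± 756 with guide plus Cas9, 9797 ± 725 with guide RNA and 10079.7 ± 763 with phenol red (SD, n = 5 each).

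**Figure D1:**
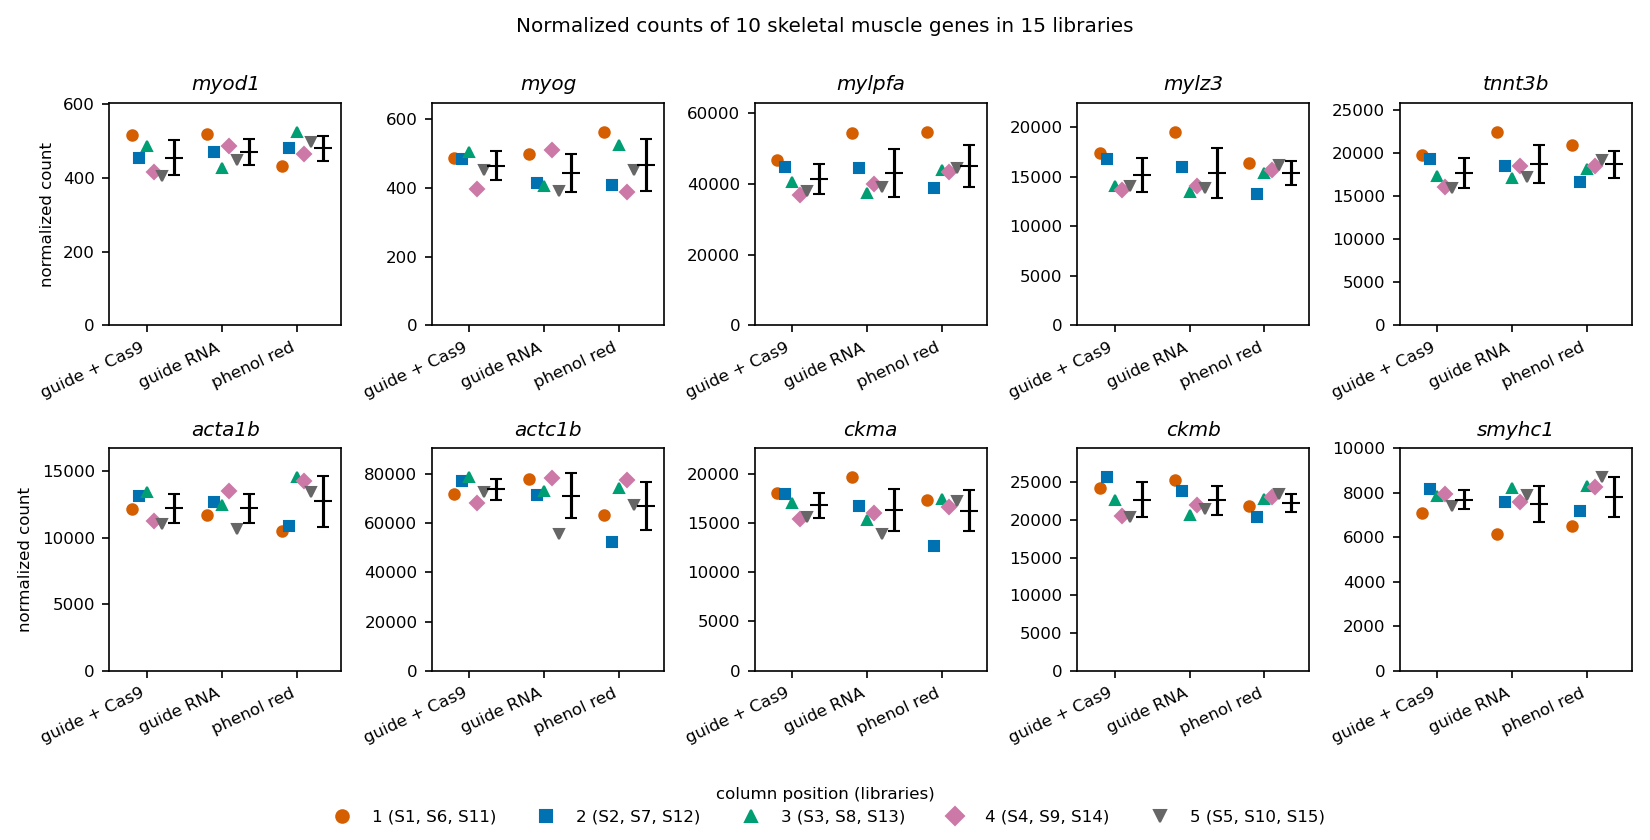
Normalized counts (vertical axes from 0) of the 10 muscle genes, 1 point per library, in the groups guide plus Cas9, guide RNA and phenol red. Colours and symbols mark the position of the library among the columns of its group, and black bars give the mean ± SD (n = 5). The groups overlap in every panel, and mylpfa reaches 54715 in S1 and 54445 in S6.

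**Figure D2:**
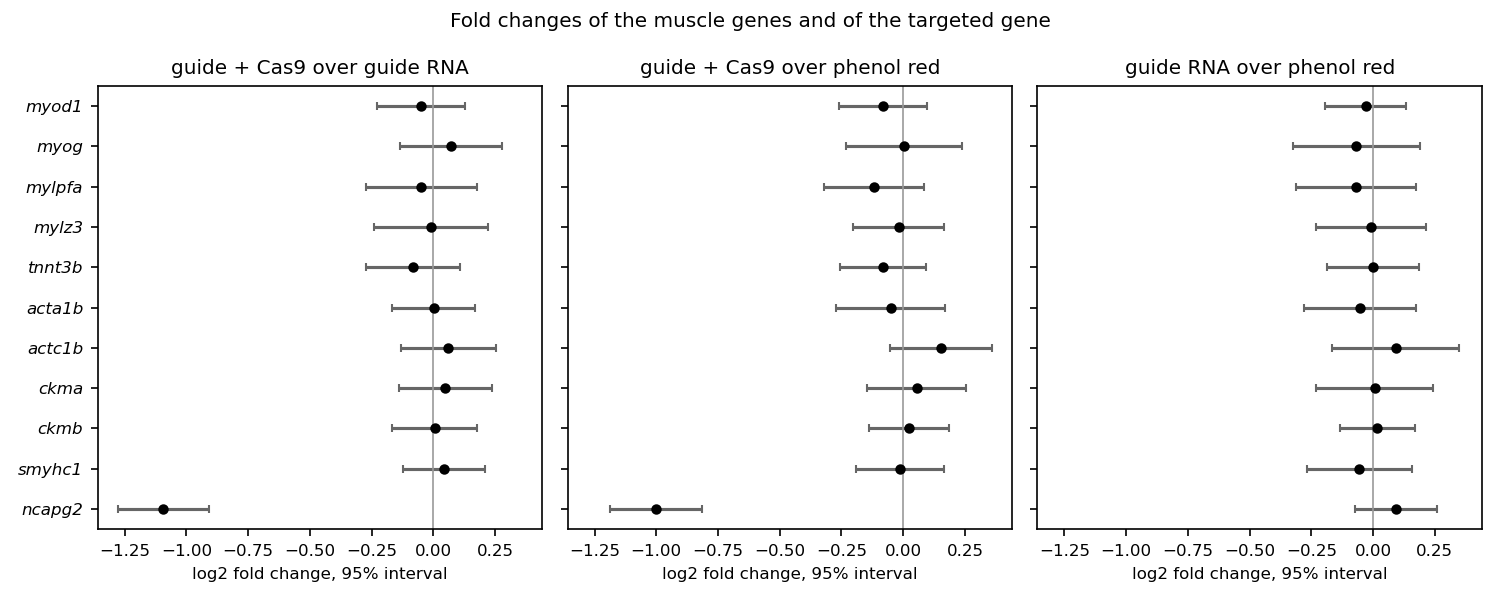
Log2 fold changes with 95% intervals (horizontal axes) for the 10 muscle genes and the targeted gene ncapg2 in the 3 comparisons. All 30 intervals of the muscle genes include 0 and lie between -0.32 and 0.36, while ncapg2 sits at -1.09 and -1.001 in the panels with Cas9.

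Ratios between the muscle genes within a library, which cancel the size factor, were compared with two-sided exact permutation tests of mean log2 ratios over n = 5 libraries per group. Of 7 ratios in 3 comparisons, 21 tests in all, none passed after Benjamini-Hochberg adjustment, and the lowest adjusted p was 0.417. The ratio of actc1b to acta1b was 6.07 ± 0.322 with guide plus Cas9, against 5.28 ± 0.486 with phenol red (SD, n = 5 each; exact permutation p = 0.032, adjusted p = 0.417). With guide RNA it was 5.84 ± 0.521. The ratio of the slow gene smyhc1 to the fast gene mylpfa is given as smyhc1 counts per 100 mylpfa counts. It was 18.8 ± 2.34 with guide plus Cas9, 17.9 ± 4.12 with guide RNA and 17.6 ± 3.19 with phenol red (SD, n = 5 each). Its exact permutation p (n = 5 per group) was 0.690 for guide plus Cas9 against guide RNA and 0.579 for guide plus Cas9 against phenol red. The ratio tests did not use column position, described further on, so differences between positions are part of the spread they measure. The ratio of ckma to ckmb averaged 0.741 ± 0.027, 0.720 ± 0.049 and 0.726 ± 0.065 in guide plus Cas9, guide RNA and phenol red libraries.

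The wider muscle programme was followed in 6 lists: myogenic regulators, the fast sarcomere, slow fibres, excitation and calcium handling, metabolism, and adhesion and costameres, 155 genes in all of which 154 were tested. Bulk RNA of heads does not show which cells a listed gene was read from, so these levels may include other tissues. In each comparison 0 of 154 were called. At an unadjusted p under 0.05 there was 1 gene (0.649%) for guide plus Cas9 over guide RNA, 3 (1.95%) for guide plus Cas9 over phenol red and 3 (1.95%) for guide RNA over phenol red, close to the 0.917%, 2.29% and 1.04% of all genes. All were lower in the group named first. The gene of the first comparison was mybpc2a, a fast myosin-binding protein C, at -0.28 ± 0.10 (SE). Those of the second were myf5, an early myogenic factor, at -0.47 ± 0.18, the fast troponin I gene tnni2a.1 at -0.23 ± 0.098, and phkg1a, a subunit of muscle phosphorylase kinase, at -0.23 ± 0.076. In the third they were the troponin I gene tnni1b, listed under both slow fibres and heart, at -0.28 ± 0.11, the oxygen-binding myoglobin gene mb at -0.52 ± 0.17 and phkg1a at -0.18 ± 0.079. These genes are named because their counts were 5 or fewer, after their values were seen, and myf5 was also the only 1 of the 154 whose groups did not overlap (guide plus Cas9 against phenol red, 0.649% beside 0.426% of all genes), at a mean of 38.7 normalized counts over all libraries. With shares this close, that count does not set the lists apart.

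None of the 4 genes with the highest mean normalized count in each list passed either. Their log2 fold changes ran from -0.097 (pvalb4) to 0.16 (capn3a) for guide plus Cas9 over guide RNA, and from -0.096 (pvalb4) to 0.18 (ckmt2a) for guide plus Cas9 over phenol red. A few of them follow as examples. Myhb, a fast myosin heavy chain, had log2 fold changes of 0.031 over guide RNA and -0.066 over phenol red with guide plus Cas9. The calcium pump of the fast sarcoplasmic reticulum, atp2a1, had 0.065 and 0.17 in the same comparisons, and the calcium buffer pvalb2 had -0.0049 and -0.051. Mef2d and mef2ca, transcription factors that drive muscle structural genes, had 0.11 and 0.13, and 0.014 and 0.072. Tpm3 and tpm2, tropomyosins of the slow-fibre list, had -0.058 and -0.051, and -0.022 and -0.078. Pkma, a pyruvate kinase, and desma, a desmin that ties sarcomeres together, had -0.011 and 0.067, and -0.014 and 0.037. Capn3a, a muscle calpain protease, had 0.16 and -0.0037. None of these passed the threshold. A pair of fast myosin entries in the tables carry the name myhz1.1, and the myhz1 copies are so alike that their single values are uncertain.

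Heart muscle genes, which share several sarcomere proteins with skeletal muscle, had lower medians than the skeletal lists beside phenol red. For the 23 heart genes the median log2 fold change was 0.038 over guide RNA (22 tested) and -0.27 over phenol red with guide plus Cas9, where 20 of 23 were negative. For guide RNA over phenol red it was -0.23, with 22 of 23 negative, and none was called in any comparison. Over all genes tested, 10319 of 21580 were negative for guide plus Cas9 over phenol red and 9782 of 21601 for guide RNA over phenol red. Heart was not alone in this, since 15 of 16 yolk and liver genes were negative in each, with medians of -0.58 and -0.43. With column position as a block, the heart genes nppa and vmhcl were called lower with guide RNA than with phenol red, at -0.67 ± 0.088 and -0.40 ± 0.050 (SE). Over all genes 4 (0.0185%) were called in that fit. The others were rpe65a at -0.47 ± 0.058 and rbp2a, a gene of the yolk and liver list, at -0.41 ± 0.058 (SE). Nppa, rpe65a and rbp2a are named after their values were seen. The heart genes vmhc, a ventricular myosin, and vmhcl gave 0.0043 and -0.33 with guide plus Cas9 over phenol red. Smooth muscle genes had medians of 0.038, -0.030 and -0.026 in the order guide plus Cas9 over guide RNA, guide plus Cas9 over phenol red and guide RNA over phenol red. Their defining gene acta2 ranged from 284 (S10) to 595 (S1) normalized counts.

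For each of the 10 muscle genes, the position of a library among the columns of its group accounted for more of the variance than the group did. With 5 positions and only 3 groups, position takes the larger share on average even where neither has an effect. That order alone therefore does not show that position matters more than group for a gene. Position 1 holds S11, S6 and S1, position 2 holds S12, S7 and S2, and so on to position 5 with S15, S10 and S5. No label says what a position stands for, so position is a description and not a documented batch. Libraries were run 5 to a lane, and which of them shared a lane is not given. A lane could hold the 5 libraries of 1 group, and an effect of lane could then not be told apart from one of group. Tested with a limma F test of the 5 positions, with the group as a term in the fit, 3 of 10 muscle genes were called, beside 47.0% of all genes. At 30% against 47.0%, the count is not a result about muscle genes. Libraries of the same position were already known to vary together in these data, and the test is not independent evidence of that.

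The 3 called genes were mylpfa (adjusted p = 0.0051, limma), smyhc1 (0.0096) and tnnt3b (0.032), and mylz3 missed the threshold at 0.061. Mylpfa averaged 51948 ± 4561 normalized counts at position 1 (SD, n = 3), against a mean of 40976 over the other 12 libraries, 1.27-fold as high. Tnnt3b averaged 21011 ± 1364 at position 1, 1.19-fold the mean of the others, and mylz3 17775 ± 1621, 1.21-fold. In all 3 groups the position 1 library was the highest of its group for mylpfa, tnnt3b and mylz3. Smyhc1 went the other way, with 6584 ± 458 at position 1 against 7929 in the other 12 libraries, 0.830-fold, and its position 1 library was the lowest in all 3 groups. Position accounted for 67.5% of the variance of log2 levels for mylpfa, 71.2% for smyhc1, 58.6% for tnnt3b and 53.5% for mylz3. For the other 6 it was lower, at 37.8% for myog, 35.1% for acta1b, 33.4% for ckma, 26.1% for actc1b, 24.8% for ckmb and 14.7% for myod1. Over all genes tested the median share was 58.4%, and the group accounted for a median of 6.85%.

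The call rests on position 1. Without its 3 libraries 0 of 10 muscle genes were called, and over all genes 4318 were called in place of 10285. Without S6 alone 0 of 10 were called, without S1 alone 1 of 10, and without any other single library between 2 and 4. The remaining muscle genes did not pass the F test. Relative to the mean of the 5 positions, position 1 was at 0.16 on the log2 scale for ckma, 0.081 for ckmb, 0.18 for myog, 0.062 for myod1, 0.013 for actc1b and -0.11 for acta1b.

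**Figure D3:**
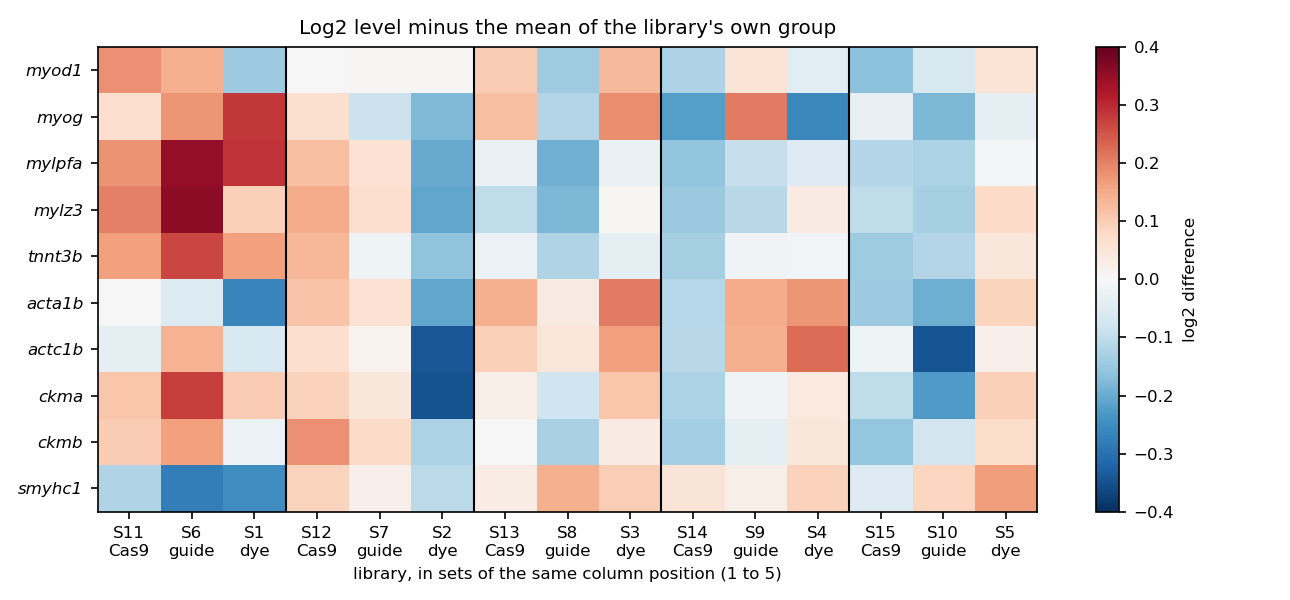
Log2 normalized count of each muscle gene (vertical) minus the mean of the library's own group, for the 15 libraries (horizontal) set in 5 blocks by column position, in each block guide plus Cas9, guide RNA and phenol red (dye) in turn. In the block of position 1, mylpfa, mylz3 and tnnt3b are above their group means in all 3 libraries and smyhc1 is below in all 3.

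The opposite movement of a fast and a slow gene shows in their ratio within a library. Smyhc1 counts per 100 mylpfa counts were 15.1 in S11, 11.3 in S6 and 11.9 in S1, all at position 1, and between 17.1 (S7) and 22.1 (S8) in the other 12 libraries. The means by position were 12.8 ± 2.06, 17.9 ± 0.761, 20.1 ± 1.71, 19.9 ± 1.44 and 19.8 ± 0.429 from position 1 to 5 (SD, n = 3 each). The slow copy smyhc2 did not follow smyhc1, since its log2 level at position 1 was 0.15 above the mean of positions, and the sum of smyhc1 and smyhc2 was 9089.9 ± 496, 10505 ± 556, 10580.4 ± 278, 9833 ± 350.5 and 9773 ± 688 from position 1 to 5 (SD, n = 3 each). Other slow-fibre genes at position 1 were tpm3 at 0.14, tpm2 at 0.16 and tnni1b at 0.31, each called. Tnni1b was in the heart list as well, whose median at position 1 was 0.32. Sox6, a transcription factor that holds back slow genes in fast fibres, was at -0.25, also called. Of the 11 slow-fibre genes, 6 were above the mean of positions at position 1.

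**Figure D4:**
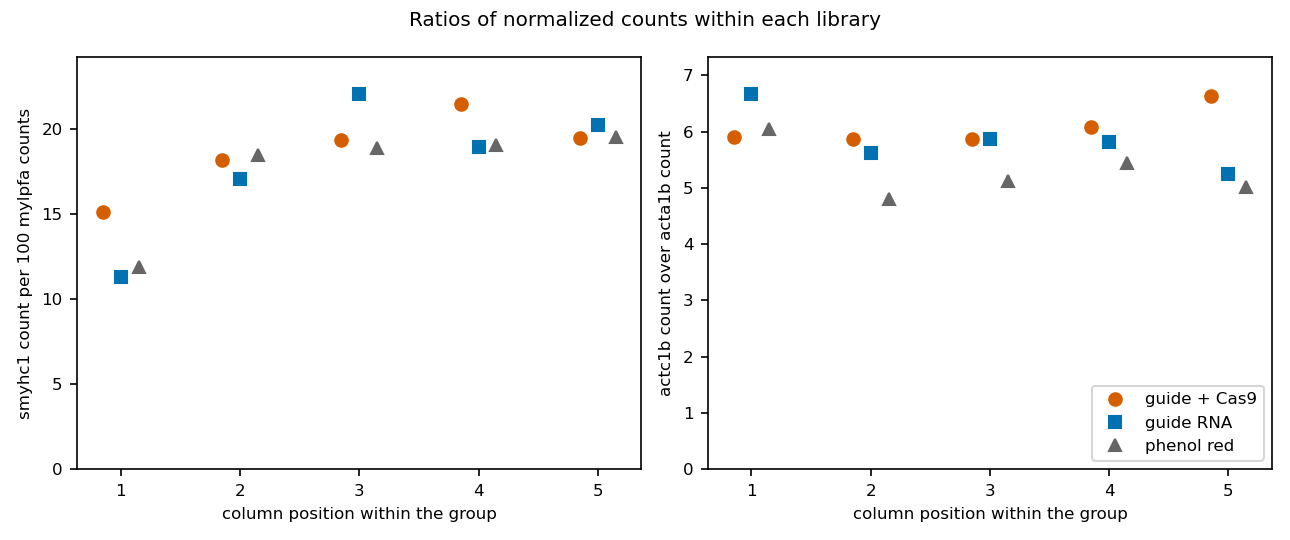
Ratios of normalized counts within each library against column position: smyhc1 per 100 mylpfa (left) and actc1b over acta1b (right), with guide plus Cas9, guide RNA and phenol red as separate symbols. The left ratio lies between 11.3 and 15.1 at position 1 and between 17.1 and 22.1 elsewhere.

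Within the fast sarcomere list, 19 of 35 genes were called by position (54.3%), with 12 highest and 7 lowest at position 1. Of the 35, 21 were above the mean of positions at position 1. The 4 with the highest mean count were split, with myhb at 0.059, a myhz1.1 entry at 0.24, myhz2 at -0.19 and ttn.2 at -0.40, none called. Those above the mean of positions at position 1 included tpma, the fast tropomyosin, at 0.49, mylpfb, the sister copy of mylpfa, at 0.69, tnni2b.2 at 0.59 and tnnc2, the fast troponin C, at 0.22, each called. Among those below it were genes of giant proteins, neb (nebulin, which spans the thin filament) at -0.53, called, and ttn.2 and ttn.1 (titin) at -0.40 and -0.26, not called. They were not the only ones, since the myosin heavy chain gene myhz2 was below it too. In the excitation and calcium handling list 12 of 35 genes were called (34.3%), below the 47.0% of all genes, and 23 of 35 were above the mean at position 1. Of its 4 genes with the highest mean count, the calcium buffers pvalb1, pvalb2 and pvalb4 were at 0.64, 0.60 and 0.18, each called. The fourth, atp2a1, was at -0.016 and not called. Of the 6 lists together, 78 of 154 genes were called (50.6%, beside 47.0% of all genes). The lists differed in direction at position 1. Among the myogenic regulators 10 of 26 were above the mean there, and of 13 called (50.0%) 8 were lowest and 4 highest at position 1. For muscle metabolism 17 of 23 were above, and of 14 called (60.9%) 10 were highest and 4 lowest. For adhesion and costameres 18 of 24 were above, and of 13 called (54.2%) 8 were highest and 5 lowest. Tpma, mylpfb, tnni2b.2, neb and ttn.1 were named after their values were seen.

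Markers of several other tissues moved with position as well, read here beside the 47.0% of all genes called. At position 1, 8 of 8 tested trunk and tail hox and cdx genes were above the mean of positions, with a median of 0.93 on the log2 scale, and 7 of 8 (87.5%) were called. Of the 26 symbols of this list, 14 were not matched to a measured gene. The others of the 12 measured did not reach 10 in at least 5 libraries, and 6 of the 12 had a mean under 10. Position 1 libraries count toward that filter, so the 8 may be tested in part because they were high there. Over all 12 genes the mean centred log2 level at position 1 was 1.04. Heart genes had a median of 0.32, with 18 of 23 (78.3%) called. Head and brain genes were below in 20 of 21 cases, with a median of -0.19 and 16 (76.2%) called, among them otx2 at -0.24 and pax6a at -0.24. All 16 yolk and liver genes were above, with a median of 2.12, but only 3 (18.8%) were called, below the share of all genes. Cartilage and connective tissue genes were near that share, with 10 of 21 (47.6%) called and a median of -0.018. All 10 called were lowest at position 1, among them col2a1a at -0.40, while 10 of the 21 were above the mean of positions there. Smooth muscle genes were near that share too, with 5 of 12 (41.7%) called, 4 of them highest at position 1, and a median of 0.13. Of the neuron genes 7 of 11 (63.6%) were called, with a median of -0.12. Hoxa13b ranged from 8.02 (S9) to 51.4 (S6) normalized counts, and apoa1b, an apolipoprotein of yolk and liver, from 329 (S14) to 27818 (S1). The part of these tissues in the position 1 levels of mylpfa, tnnt3b and smyhc1 was not tested.

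Genes of very large proteins outside muscle, a list chosen after its values were seen, moved with position too. Of 13 tested, among them huwe1, macf1a and fat1a, 12 were below the mean of positions at position 1 (median -0.23) and 13 of 13 were above it at position 3 (median 0.28). By position 12 of 13 were called, beside 47.0% of all genes. Huwe1, a ubiquitin ligase, had 10757 normalized counts on average at position 1, against 14294 in the other libraries. Of 73 cytosolic ribosomal protein genes, which encode small proteins, 3 were called, far below the 47.0% of all genes. At positions 1 to 5, 61, 61, 7, 0 and 65 of them were above the mean of positions, so position 1 did not stand apart for them. Over single libraries the mean centred log2 level of the very large genes was lowest in S1, at -0.40, and highest in S13, at 0.34. Whether this bears on the muscle genes was not tested.

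**Figure D5:**
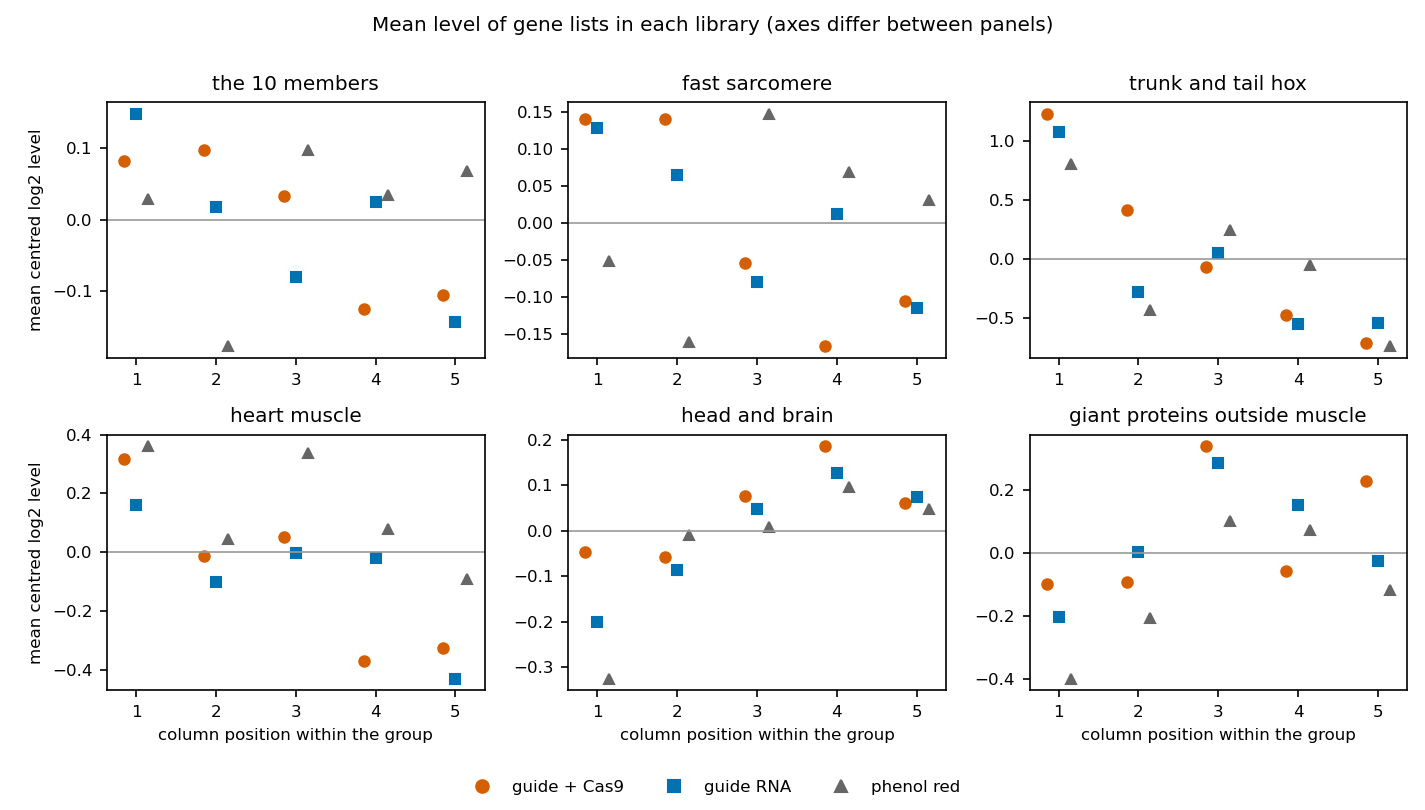
Mean log2 level of each gene list, centred on each gene's mean over the 15 libraries (vertical, axes differ), against column position (horizontal), with guide plus Cas9, guide RNA and phenol red as separate symbols. At position 1 the trunk and tail hox genes lie between 0.81 and 1.23 and the head and brain genes between -0.33 and -0.046, while the 10 muscle genes stay between -0.18 and 0.15 over all positions.

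Across the 15 libraries the muscle genes did not vary as a single block. Pearson's r of log2 levels, given as a description over n = 15 libraries that share size factors, groups and positions, was 0.94 for mylpfa and tnnt3b, 0.91 for tnnt3b and mylz3, 0.90 for mylpfa and mylz3 and 0.80 for ckma and ckmb. It was 0.67 for acta1b and actc1b, -0.0014 for mylpfa and acta1b and -0.60 for mylpfa and smyhc1. Myod1 and myog had 0.38. The mean of the 10 was compared with 15948 other genes with a mean of 50 or more, leaving out unnamed genes and names with a colon. Of these, tnnc2 was most like it (r = 0.88, n = 15), followed by cetp, a lipid transfer protein (0.88), and usp28, a deubiquitinase (0.85). Next came casq1b, the calsequestrin of skeletal muscle (0.85), cyp2p9 (0.85), cyp8b1 (0.84), qsox1 (0.84) and lgals2b (0.84). Smyd1a, a methyltransferase needed for sarcomere assembly (0.84), and dmgdh (0.84) followed. The median r with the 10 was 0.57 for the fast sarcomere list, 0.55 for muscle metabolism, 0.52 for adhesion and costameres, 0.37 for excitation and calcium handling, 0.24 for slow fibres and -0.0015 for the myogenic regulators. It was 0.76 for yolk and liver, 0.54 for heart, 0.45 for smooth muscle, -0.066 for cartilage and connective tissue, -0.15 for neurons and -0.35 for head and brain, against -0.052 over all genes compared.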

How the data were processed

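RNA of embryo heads was captured with oligo-dT beads, made into stranded libraries and read as 50 bp single ends, per the labels' protocols. The submitters' processing notes list the tools STAR, HTSeq and DESeq2 beside bcl2fastq, cutadapt and Trim Galore. Their versions and the genome build were not given in the sources used here. The 3 tables that the authors deposited hold, per the file headers, normalized values per library, and these signal values are read counts divided by 1 size factor per library. Beside them stand the authors' deposited log2 fold changes and standard errors, a test statistic (a score) and p-values, by which they call 1, 2 and 0 genes and none of the 10 muscle genes. Columns were assigned to groups by the tables that hold them and carry no replicate number.

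In each library 100% of values were whole multiples of the smallest value above 0 (tolerance 0.001), which gave whole reads. limma 3.58.1 (R 4.3.3, trend, robust) was fitted to log2(value + 1) for genes at 10 or more in at least 5 libraries of a comparison, with Benjamini-Hochberg adjustment over all genes tested and a threshold of 0.05. Fold changes on this scale understate those of low genes. Alternatives on the recovered reads were edgeR 4.0.16 (quasi-likelihood), which called 1, 1 and 0 genes, and DESeq2 1.42.0, which called 1, 2 and 0. The steps were also run on simulated data. For the fits between groups, the simulated libraries held no differences between column positions. How these fits fare under such differences was therefore not tested.

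The muscle genes, lists and tests were chosen with earlier results of these data known. The within-library ratio tests and the count over 6 muscle lists together were added after seeing the data. Of 301 listed symbols, 275 were matched, 9 of them through synonyms in a RefSeq table (assembly GRCz12tu). Named genes are the 10, ncapg2, the 4 genes with the highest mean of each list and the 10 most like the muscle genes in pattern, and others are said to be chosen after their values were seen. The block uses the column position within a group, which is no label: over 15 pairs of groups at 1 position, the correlation of deviations from group means ran from 0.127 to 0.782 (21902 genes). In 13 of the 15, the same position gave the highest correlation with the other group. The exceptions were guide plus Cas9 against phenol red at position 2 (0.127, and 0.224 with another position) and position 4 (0.337, and 0.360 with another position). The labels call the pools biological replicates, and p-values measure the spread between these pools. Sequences were not used here.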

Additional observations from a re-analysis of the deposited data

Results flagged for a closer look

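A library stood far from the other 4 of its group in 2 of the 33 sets of 5 libraries looked at (11 genes in 3 groups), where chance gives about 1 in 20. For tnnt3b, the guide RNA library S6 had a normalized count of 22443, and its gap to the next library was 0.751 of the range of the group. For ckma, the phenol red library S2 had 12671, with a gap of 0.825 of the range. S6 also had the highest share of reads in the 10 muscle genes and S2 the lowest.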

How the results depend on the processing

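The 10 muscle genes stayed without a call between groups under all 10 settings tried (pseudocounts of 0.5 and 5, no filter, a filter of 50, TMM, edgeR, DESeq2, non-robust moderation, 3 groups in 1 fit, and a replicate block of column position) and without each library or column-position set in turn. The block left 0 of 10 muscle genes called and moved the calls over all genes to 3, 2 and 4 for guide plus Cas9 over guide RNA, guide plus Cas9 over phenol red and guide RNA over phenol red; DESeq2 gave 2 for guide plus Cas9 over phenol red. Leaving out 1 library or set, the muscle genes called by position ranged from 0 to 4 and all genes called by position from 4318 to 10390. Log2 fold changes near 0 changed sign, none of them past the threshold. Myog for guide plus Cas9 over phenol red was -0.0042 with TMM, -0.015 with edgeR and -0.0083 with DESeq2, tnnt3b for guide RNA over phenol red -0.00027 with TMM, and mylz3 for guide RNA over phenol red 0.0011 with DESeq2. Leaving out 1 library or set, the changes with guide plus Cas9 over guide RNA ranged from -0.047 to 0.067 for acta1b, -0.026 to 0.12 for actc1b, -0.0089 to 0.12 for ckma, -0.041 to 0.046 for ckmb, -0.096 to 0.040 for mylpfa, -0.060 to 0.080 for mylz3 and -0.026 to 0.078 for smyhc1. Those with guide plus Cas9 over phenol red ranged from -0.13 to 0.021 for acta1b, -0.057 to 0.10 for ckma, -0.056 to 0.078 for ckmb, -0.11 to 0.026 for mylz3, -0.061 to 0.074 for myog and -0.076 to 0.041 for smyhc1. Those with guide RNA over phenol red ranged from -0.12 to 0.019 for acta1b, -0.092 to 0.087 for ckma, -0.034 to 0.057 for ckmb, -0.16 to 0.0015 for mylpfa, -0.099 to 0.043 for mylz3, -0.10 to 0.038 for myod1, -0.18 to 0.0081 for myog, -0.12 to 0.013 for smyhc1 and -0.066 to 0.042 for tnnt3b. Each muscle gene had at least 319 reads in every library, with the fewest for myog (319 to 553) and myod1 (384 to 561) and at least 6151 for each of the others, so counting error is larger for the regulators. Its share of the spread between pools was not computed.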
